A study of Mus musculus with 87 samples.

Results

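Sfmbt2, Jade1, Gab1, Slc38a4 and Smoc1 are mouse genes of a published class described as imprinted through histone methylation of the egg's copy. They were taken from that class by name. The rule uses no measured value, although earlier results of these data were known when the class was chosen. Whether DNA methylation also plays a part at any of the genes cannot be read from these counts. They are 5 of the 25277 gene symbols in the deposited tables, and each had a row in all 10 tables. The RNA came from androgenetic haploid embryonic stem cells, whose only genome is of paternal origin, and from semi-cloned embryos and mice, made by placing such a haploid cell into an oocyte in the role of a sperm.

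The haploid cells, labelled AG-haESC, carried the genotypes Dnmt TKO (n = 3), Dnmt STOP (n = 2) and Dnmt WT (n = 3). Preimplantation embryos carried the label pIR or pWT. Each had 4 libraries at the 2C and blastocyst stages, and morulae had 4 of pIR and 3 of pWT. Fetal tissues at E18.5 fall into batches. In batch 1, pTKO and pWT had 2 libraries each of brain, heart, kidney, liver and lung. In batch 2, pIR and pWT had 4 libraries each of heart and of liver. At P1, heart, kidney, liver and lung were sampled from pIR (n = 2) and pWT (n = 3). The labels do not say what pIR, STOP or the prefix p stand for, and they name no strain, sex or number of animals. Nothing in them says that replicates came from separate cultures, embryo pools or animals, so p-values measure only the spread between these samples, which may be technical. For 11 embryo columns, all assigned to pWT, the match to a sample was made by elimination on stage and number, and every embryo comparison rests on it.

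Imprinted genes are expressed from the copy inherited from a single parent. Most imprints are DNA methylation marks laid down in the egg or sperm, but at a small group of mouse genes the egg's copy is silenced by trimethylation of lysine 27 on histone H3 (H3K27me3), a mark written by Polycomb repressive complex 2 (PRC2), while the sperm's copy is active. This form of imprinting is known from preimplantation embryos, and for several of these genes it persists in the placenta. The counts do not separate the parental copies, so each value is the sum over both.

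Sfmbt2 encodes a Polycomb group protein with MBT repeats that mouse trophoblast requires. It lies on chromosome 2 from 10370510 to 10595253 on the plus strand of mm10 (GENCODE M21, ENSMUSG00000061186), and its introns hold a large cluster of microRNA genes, 119 of them annotated. Jade1 encodes a PHD finger scaffold of the HBO1 histone acetyltransferase complex and lies on chromosome 3 from 41555731 to 41616864, plus strand. Gab1 encodes a docking protein that relays signals from receptor tyrosine kinases such as Met, and lies on chromosome 8 from 80764438 to 80880519, minus strand. Slc38a4 encodes a sodium-coupled transporter of neutral amino acids, known from liver and placenta, and lies on chromosome 15 from 96994820 to 97055956, minus strand. Smoc1 encodes a secreted calcium-binding glycoprotein of the SPARC family that modulates BMP signalling, and lies on chromosome 12 from 81026808 to 81186414, plus strand. Noncoding transcripts on the opposite strand are annotated over part of Sfmbt2, Jade1 and Gab1. The sources used here do not state whether the counting used strand, so reads from such transcripts cannot be told apart from the genes' own.

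Promoters of the genes differed widely in CG dinucleotides, the bases that DNA methyltransferases act on. Sequences from 250 bases before to 50 after the annotated start were available from RefSeq (GRCm38.p6) for 4 of the 5 genes, 11 promoters in all. For each gene the promoter with the most CG, or the first of those tied, is printed, because the haploid donors differ in their Dnmt genotype. Sequences read 5′ to 3′ on the gene's strand, with each CG in capitals.
Sfmbt2, chr2:10372186-10372485, plus strand: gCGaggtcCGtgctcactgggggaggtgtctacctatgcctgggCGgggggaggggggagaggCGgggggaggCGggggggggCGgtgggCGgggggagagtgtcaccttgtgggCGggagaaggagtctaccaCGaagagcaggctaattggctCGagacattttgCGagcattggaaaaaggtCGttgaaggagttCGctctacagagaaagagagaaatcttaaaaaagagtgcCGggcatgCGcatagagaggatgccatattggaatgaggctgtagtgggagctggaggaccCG
Jade1, chr3:41563501-41563800, plus strand: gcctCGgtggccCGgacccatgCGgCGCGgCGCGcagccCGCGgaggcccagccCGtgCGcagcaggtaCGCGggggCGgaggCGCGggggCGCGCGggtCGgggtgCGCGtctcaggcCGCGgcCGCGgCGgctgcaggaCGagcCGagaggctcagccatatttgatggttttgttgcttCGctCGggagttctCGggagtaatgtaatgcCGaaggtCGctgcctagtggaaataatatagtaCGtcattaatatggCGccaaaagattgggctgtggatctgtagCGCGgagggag
Gab1, chr8:80880430-80880729, minus strand: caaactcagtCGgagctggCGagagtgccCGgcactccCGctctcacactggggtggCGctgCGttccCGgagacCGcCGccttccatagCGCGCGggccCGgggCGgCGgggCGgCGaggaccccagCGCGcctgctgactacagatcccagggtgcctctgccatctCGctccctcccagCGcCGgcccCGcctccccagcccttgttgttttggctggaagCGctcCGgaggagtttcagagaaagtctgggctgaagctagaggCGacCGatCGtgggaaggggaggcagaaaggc
Slc38a4, chr15:97055907-97056206, minus strand: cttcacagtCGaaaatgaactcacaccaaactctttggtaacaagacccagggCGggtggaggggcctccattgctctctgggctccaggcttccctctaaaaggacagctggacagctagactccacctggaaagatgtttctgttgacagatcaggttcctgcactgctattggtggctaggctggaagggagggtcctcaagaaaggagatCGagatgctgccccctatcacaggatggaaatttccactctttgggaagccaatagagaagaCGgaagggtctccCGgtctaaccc
The printed Jade1 promoter, the richest of its annotated promoters, held 38 CG. It lies at percentile 95.3 of the 32851 RefSeq promoters of the same length, whose median was 7. Those promoters were not picked as the richest of their gene. The other Jade1 promoters held 18, 14 and 25 CG, at percentiles 71.1, 64.5 and 82.4. The printed Gab1 promoter held 28 CG and its other promoter 26. For Sfmbt2 the printed promoter held 16 CG and the other 9. Slc38a4 had 5 CG in each of its 3 promoters, which lies below the median of all promoters. The GC content of the printed Slc38a4 promoter was 53.0%, against 69.0% for that of Gab1 and 66.3% for that of Jade1. The other Slc38a4 promoters had a GC content of 46.7% and 45.3%.

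Library totals of pIR 2C embryos were 6.1 to 7.5 M counts, and those of pWT 2C embryos were 10.9 to 24.0 M. They ran from 7.7 to 17 M in morulae and blastocysts, from 16.8 to 24.5 M in haploid cells and from 10.7 to 37.4 M in tissues. Levels are given in CPM, counts scaled to a common library total. Listed markers of each labelled tissue were detected: none of the 8 listed brain, heart, kidney, liver or lung markers was at 0 in its own tissue. At this depth a level above 0 does not test the tissue labels. In the haploid cells the mean levels of Dnmt1, Dnmt3a and Dnmt3b were 71.1, 11.3 and 24.1 CPM in TKO cells, against 421.7, 68.8 and 135.6 CPM in WT cells. STOP cells kept these transcripts, at 586.6, 55.7 and 125.1 CPM.

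At the 2C stage Jade1 had reads in 7 of 8 libraries, while each of the other four genes had none in at least 4 of 8, and libraries of the same group lay far apart. Jade1 had 0, 38.4, 5.05 and 31.5 CPM in the 4 pIR libraries, against 26.5, 13.7, 15.3 and 11.03 CPM in the 4 pWT libraries. Sfmbt2 had reads in 2 of 4 pIR libraries, at 3.65 and 26.6 CPM, and in 1 of 4 pWT libraries, at 11.7 CPM. Gab1 had 3.11, 0.265, 0 and 10.4 CPM in pIR libraries, and in pWT libraries it had 14.2 CPM in replicate 2 and no reads in the other three.
Slc38a4 was detected in 1 library of each group, at 4.90 CPM in pIR and 3.12 CPM in pWT embryos. Smoc1 was detected in 2 of 4 pIR libraries, with 27 and 16 counts, and in none of the pWT libraries. A count of 0 allows up to 3 counts, which is 0.397 to 0.489 CPM in the pIR libraries and 0.125 to 0.276 CPM in the deeper pWT libraries. These limits cover counting error alone.

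Of the 5 genes, Jade1 alone passed the filter on low counts in 2C embryos. Its log2 fold change, fitted with edgeR's quasi-likelihood test, was 0.11 ± 1.20 (SE) with a Benjamini-Hochberg adjusted p of 1. The SE exceeded the difference found in blastocysts, so a difference of that size was not detectable. The percentage of all 11076 genes tested that passed an adjusted p of 0.05 was 0, with 235 genes at an unadjusted p under 0.05 and 8 genes called by DESeq2. Summed oocyte and maternal transcripts ran from 9008 to 16360 CPM in pIR and from 10210 to 16700 CPM in pWT embryos. Summed 2-cell stage transcripts ran from 1947 to 4732 CPM in pIR and from 1212 to 4696 CPM in pWT embryos.

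In morulae all 5 genes were detected in every library, and pIR and pWT embryos overlapped at each of them. Sfmbt2 had 8.78, 10.4, 0.404 and 14.2 CPM in pIR morulae, against 7.98, 8.29 and 9.15 CPM in pWT morulae. Gab1 ran from 24.8 to 66.6 CPM in pIR and from 24.4 to 54.5 CPM in pWT morulae. Jade1 ran from 13.2 to 33.8 CPM in pIR and from 13.5 to 37.7 CPM in pWT morulae. The third pIR library stood apart at 2 genes, with 6 counts of Sfmbt2 and 1 count of Slc38a4, while its Gab1 level lay within the range of the other pIR libraries and its Jade1 level, 33.8 CPM, was the highest of them.
Slc38a4 had 22.0, 29.2, 0.0674 and 3.64 CPM in pIR morulae, against 28.9, 12.6 and 4.41 CPM in pWT morulae. Smoc1 was lowly expressed, at 3.35 to 9.05 CPM in pIR and 2.24 to 6.98 CPM in pWT morulae. None of the 5 passed in edgeR, none had an unadjusted p under 0.05 and none was called by DESeq2, beside 0.136% of the 11773 genes tested. The fitted log2 fold changes ran from 0.02 ± 1.11 for Slc38a4 to 0.69 ± 0.75 for Smoc1.

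In blastocysts Jade1 and Gab1 were lower in pIR than in pWT embryos, while Slc38a4 and Sfmbt2 overlapped between the groups. Jade1 had 57.1, 40.5, 32.3 and 58.0 CPM in pIR blastocysts, against 109.2, 152.6, 105.5 and 91.5 CPM in pWT blastocysts. Every pIR library lay below every pWT library. Its mean was 46.98 ± 12.7 CPM in pIR and 114.7 ± 26.4 CPM in pWT (SD, n = 4 each), a fitted fold of 0.461 (log2 fold change -1.12 ± 0.22 SE, edgeR adjusted p = 0.0114). The call held without any 1 library, with adjusted p from 0.0116 to 0.0499. It was lost with all embryo groups, the 2C libraries included, in 1 fit (adjusted p = 1).

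Gab1 had 53.5, 54.6, 37.8 and 62.2 CPM in pIR blastocysts, against 102.8, 110.8, 105.8 and 67.0 CPM in pWT blastocysts. The groups did not overlap, though pWT replicate 4 came close to the highest pIR library. The fitted log2 fold change was -0.72 ± 0.22 (edgeR adjusted p = 0.0499), just past the threshold. It passed in 1 of the 8 fits that left out a library, the one without pWT replicate 4, and the others gave adjusted p up to 0.139. It was also lost with median-of-ratios scaling (adjusted p = 0.0555) and after trends on GC content and length were taken out (log2 -0.54, adjusted p = 0.16).

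Smoc1 also stood lower without overlap, at 8.38, 4.19, 6.63 and 11.2 CPM in pIR against 16.0, 14.1, 14.7 and 12.3 CPM in pWT blastocysts, but it did not pass the test (log2 fold change -0.74 ± 0.37, edgeR adjusted p = 0.2). Sfmbt2 had 81.4, 36.5, 42.1 and 43.9 CPM in pIR blastocysts, against 71.0, 63.7, 59.95 and 75.4 CPM in pWT blastocysts. Its pIR replicate 1 was the highest of all 8 libraries, and the other three pIR libraries were the lowest. Its log2 fold change was -0.23 ± 0.23 (edgeR adjusted p = 0.55).
Slc38a4 had 103.6, 91.8, 135.7 and 127.8 CPM in pIR blastocysts, against 99.8, 145.1, 155.8 and 120.5 CPM in pWT blastocysts. The ranges overlapped in part, with 2 pWT libraries above every pIR library and 1 pIR library below every pWT library, and the fitted log2 fold change was 0.00 ± 0.21. So 2 of 5 genes were called, both lower, where 10.6% of the 12056 genes tested were called and 3.9% were called lower.

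**Figure D1:**
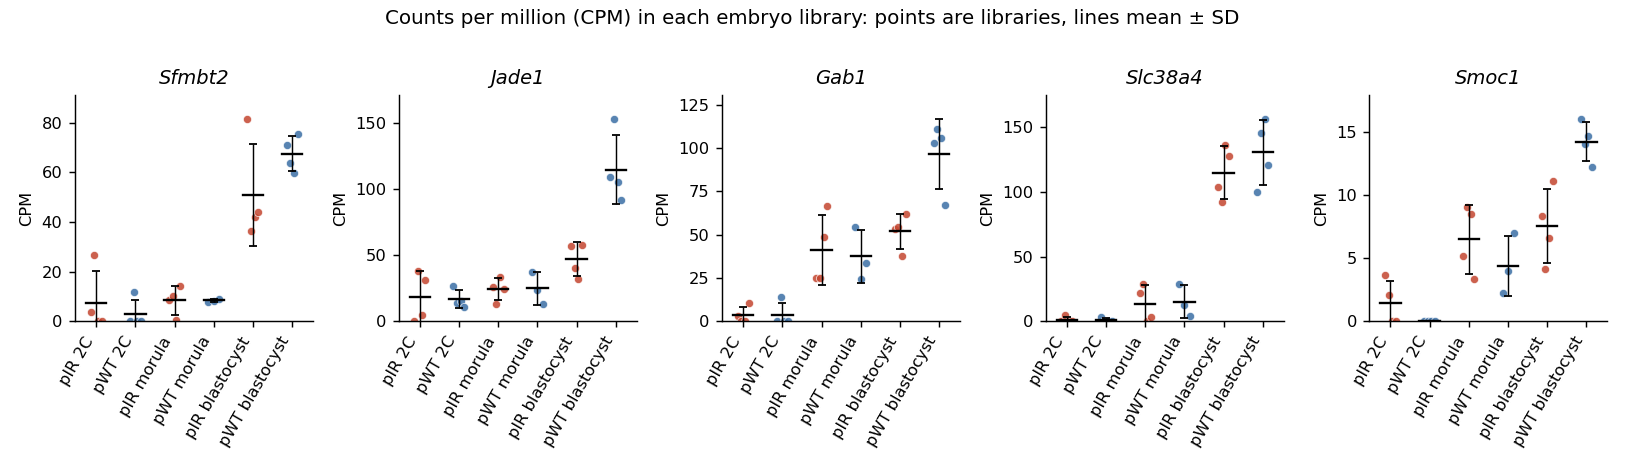
Level of each gene in CPM (y axis, a separate scale for each panel) in every embryo library of pIR and pWT at the 2C, morula and blastocyst stages; points are libraries and lines are mean ± SD. In blastocysts the 4 pIR libraries of Jade1 lie between 32.3 and 58.0 CPM and the 4 pWT libraries between 91.5 and 152.6 CPM, while Slc38a4 overlaps between the groups.

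Some markers of the blastocyst's lineages also differed between these libraries, where 6.74% of all genes were called higher and 3.9% lower. Summed trophectoderm markers ran from 6094 to 7987 CPM in pIR and from 3852 to 6669 CPM in pWT blastocysts. Of 15 tested, Id2 and Plac1 rose and Tfap2c fell. Summed epiblast markers ran from 893.6 to 1154 CPM in pIR and from 1197 to 1399 CPM in pWT blastocysts, and 3 of 10, Klf2, Esrrb and Klf4, fell. Primitive endoderm markers summed to 470 to 636.2 CPM in pIR and 530.9 to 694.8 CPM in pWT blastocysts, and 1 of 8, Dab2, rose. The median log2 fold change of these 8 was 0.44, opposite in direction to their sum. Most markers of each list were not called, and the trophectoderm and primitive endoderm counts lie near the shares over all genes. In bulk samples fewer cells of a type and less RNA per cell cannot be told apart, and the part of these markers in the results for Jade1 and Gab1 was not tested. The nearest protein-coding genes did not pass in blastocysts, with a log2 fold change of -0.54 ± 0.39 for Pgrmc2 and -1.14 ± 0.47 for Sclt1 beside Jade1, and of -0.32 ± 0.15 for Smarca5 and -0.42 ± 0.26 for Usp38 beside Gab1.

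A test of whether the difference between pIR and pWT itself changed from morula to blastocyst called none of the 5 genes. For Jade1 the change was -1.22 ± 1.17 on the log2 scale with all embryo groups in the fit (edgeR adjusted p = 1), and -1.20 ± 0.46 with morulae and blastocysts alone (edgeR adjusted p = 0.533). Over all genes 0.00624% were called with all groups and 0% with morulae and blastocysts alone. Thus the fall of Jade1 passed in blastocysts and not in morulae, but a difference between the stages was not shown. Between morula and 2C the same kind of test called none of the 5 genes in edgeR, beside 0.374% of all genes. Smoc1 alone had an unadjusted p under 0.05 there (log2 -6.81 ± 1.83, edgeR adjusted p = 0.105), and as it had no reads in pWT 2C embryos this fitted value is no bound.

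In pWT embryos the mean CPM of every gene was higher at each later stage. At the 2C, morula and blastocyst stages the means were 2.93, 8.47 and 67.5 CPM for Sfmbt2, and 16.7, 24.9 and 114.7 CPM for Jade1. They were 3.56, 37.6 and 96.6 CPM for Gab1, 0.781, 15.3 and 130.3 CPM for Slc38a4, and 0, 4.41 and 14.3 CPM for Smoc1. For Jade1 the ranges of 2C embryos and morulae overlapped, and the fitted log2 fold change of morulae over 2C embryos was -0.04 ± 0.85, of the opposite sign to the means. Between morula and 2C, none of Sfmbt2, Jade1, Gab1 and Slc38a4 passed in edgeR, Slc38a4 alone of them had an unadjusted p under 0.05, and 45.9% of 16022 genes were called. Smoc1 was called, but it had no reads in pWT 2C embryos and did not pass the filter among 2C libraries alone, so nothing is read from that call. Its mean in morulae was at least 24.3-fold higher than 3 counts per 2C library, 0.181 CPM on average. The 2C libraries stand in a table of their own, so stage and table cannot be told apart.

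From morula to blastocyst, both in 1 table, no gene passed with the 2C libraries in the fit, where 4.51% of all genes were called. With morulae and blastocysts alone, a fit chosen after the data were seen, 24.6% of 13697 genes were called and 4 of the 5 rose. The log2 rise was 2.84 ± 0.89 for Slc38a4, 2.72 ± 0.63 for Sfmbt2, 1.94 ± 0.36 for Jade1 and 1.10 ± 0.36 for Gab1, with edgeR adjusted p from 0.000672 to 0.0322. For Smoc1 it was 1.41 ± 0.56 (edgeR adjusted p = 0.0744).

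In the haploid cells, which have no egg-derived genome, Slc38a4 and Smoc1 were higher in both mutant genotypes than in WT cells. Slc38a4 had 310.0, 369.1 and 295.2 CPM in TKO cells and 315.0 and 331.3 CPM in STOP cells, against 159.8, 166.5 and 151.3 CPM in WT cells. The lowest mutant library stood far above the highest WT library. The fitted rise was 1.97-fold in TKO (log2 0.98 ± 0.09, edgeR adjusted p = 0.000832) and 0.92 ± 0.10 on the log2 scale in STOP (edgeR adjusted p = 0.00184).
Smoc1 had 29.5, 34.5 and 12.8 CPM in TKO cells and 39.7 and 35.3 CPM in STOP cells, against 6.44, 6.79 and 6.94 CPM in WT cells. The third TKO library was lower than the other two, yet above all WT libraries. Its rise was 3.62-fold in TKO (log2 1.86 ± 0.30, edgeR adjusted p = 0.00603) and 5.20-fold in STOP (log2 2.38 ± 0.32, edgeR adjusted p = 0.00405). Both genes passed in all 11 fits that left out a library, 6 in TKO and 5 in STOP. TKO and STOP were set against the same WT libraries.

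Gab1 was slightly lower in the mutants, at 223.9, 257.6 and 225.1 CPM in TKO cells and 231.2 and 221.4 CPM in STOP cells, against 265.9, 258.7 and 278.0 CPM in WT cells. It fell by 0.34 ± 0.09 on the log2 scale in STOP (edgeR adjusted p = 0.0333) and did not pass in TKO (-0.23 ± 0.08, edgeR adjusted p = 0.0927), except without TKO replicate 3 (adjusted p = 0.0298). In STOP it passed in none of the 5 fits that left out a library (adjusted p from 0.0683 to 0.218).
Jade1 had 397.6 to 474.3 CPM in TKO and 397.5 to 422.1 CPM in STOP cells, against 407.9 to 426.2 CPM in WT cells. Its log2 fold change was 0.00 in TKO and -0.13 in STOP. Sfmbt2 had 33.0 to 40.9 CPM in TKO, 39.7 to 47.96 CPM in STOP and 30.8 to 34.0 CPM in WT cells. It did not pass, with adjusted p of 0.524 in TKO and 0.0714 in STOP, and it passed in STOP when TKO libraries were left out of the fit (edgeR adjusted p = 0.0075).

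So 2 of 5 genes were called in TKO and 3 of 5 in STOP, where 14.6% and 23.1% of 14959 genes were called. Between STOP and TKO none of the 5 passed in edgeR or in DESeq2 and none had an unadjusted p under 0.05, beside 0.0401% of all genes. The largest value was 0.52 ± 0.31 for Smoc1 (edgeR adjusted p = 0.902).

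**Figure D2:**
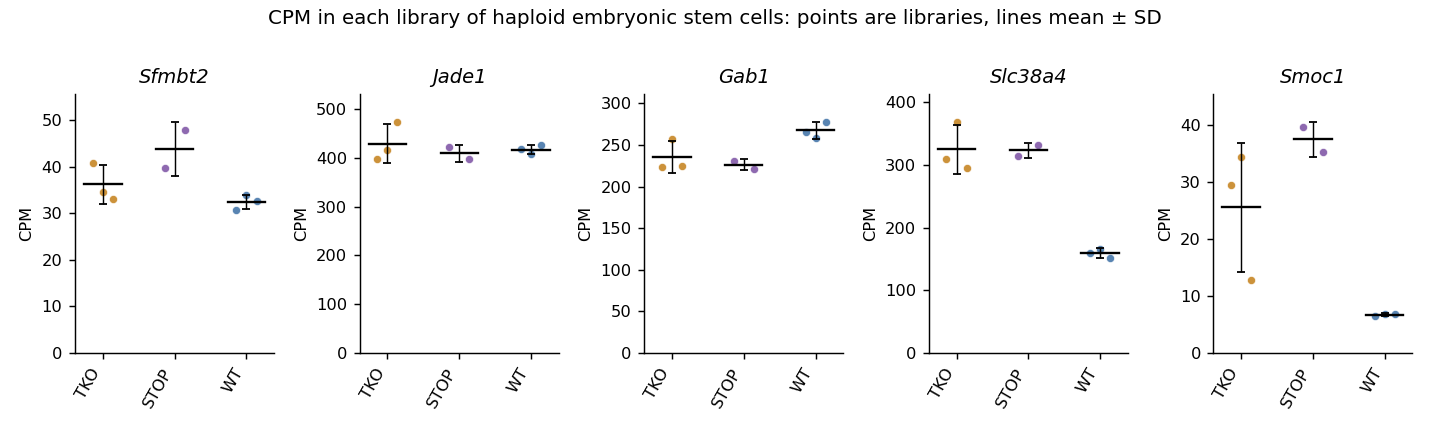
Level of each gene in CPM (y axis, a separate scale for each panel) in every library of TKO, STOP and WT haploid cells; points are libraries and lines are mean ± SD. Slc38a4 lies at 295.2 CPM or above in every mutant library and at 166.5 CPM or below in WT, while Jade1 overlaps between the genotypes.

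In batch 1 of E18.5, Jade1 in heart was the only result on these genes past the threshold. Jade1 had 40.0 and 37.2 CPM in pTKO hearts, against 23.9 and 22.6 CPM in pWT hearts. The log2 fold change was 0.65 ± 0.13 (edgeR adjusted p = 0.0296), 1 of 5 genes where 26.8% of 15075 genes were called. In batch 2, pWT hearts held 56.8 to 59.6 CPM of Jade1, above both pTKO hearts. The call was lost without either pTKO library (adjusted p = 0.156 and 0.141) and with all batch 1 tissues in the fit (adjusted p = 0.17). Genes of chromosome 3, where Jade1 lies, had a median log2 fold change of 0.24 in this comparison, against 0.01 over all genes. The excess stood in both pTKO libraries, at 0.22 and 0.23. On the chromosomes of the other genes the medians were 0.19 on chromosome 12, -0.16 on chromosome 15, -0.1 on chromosome 8 and -0.02 on chromosome 2. Markers of cell types were also compared in the same hearts, where 15% of all genes were called higher and 11.9% lower. Summed cardiomyocyte markers were 63750 and 68550 CPM in pTKO, against 56530 and 61970 CPM in pWT hearts, and of 8 tested Pln and Myl7 rose and Tnni3 fell. Haemoglobin genes summed to 1199 and 2433 CPM in pTKO, against 3788 and 3930 CPM in pWT hearts, and 2 of 6 fell. Summed hepatocyte markers were 17.4 and 2632 CPM in pTKO, against 6.39 and 149.4 CPM in pWT hearts, and none of 7 passed in edgeR (median log2 fold change 3.65). The part of chromosome 3 and of these markers in the result for Jade1 was not tested. Sclt1, which lies 9.9 kb from Jade1, rose by 2.498 ± 0.47 (edgeR adjusted p = 0.0284). Neighbours of genes not called there also passed: Smarca5 beside Gab1 (1.83 ± 0.37), Itih5 beside Sfmbt2 (1.20 ± 0.17) and Slc38a2 beside Slc38a4 (0.51 ± 0.10). Pgrmc2, Prkcq, Usp38, Amigo2 and Slc8a3 did not.

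Slc38a4 in liver had 484.0 and 717.3 CPM in pTKO, against 356.4 and 185.7 CPM in pWT livers. The groups did not overlap, but the libraries of each group lay wide apart, and the log2 fold change of 1.03 ± 0.40 did not pass (edgeR adjusted p = 0.621). Without pWT replicate 1 it was 1.53 with an adjusted p of 2.09e-08, and Jade1 and Smoc1 passed as well. A single pWT library is then assumed to vary like the pTKO livers. Summed hepatocyte markers were 15.0% and 15.1% of counts in pTKO, against 15.7% and 10.5% in pWT livers, the lower value in the library with less Slc38a4. Per 1000 hepatocyte marker counts, Slc38a4 stood at 3.23 and 4.76 counts in pTKO, against 2.27 and 1.76 counts in pWT livers. The part of these markers in the levels of Slc38a4 was not tested. The pWT livers of batch 2 held 451.5 to 558.7 CPM of Slc38a4, a range that includes the lower pTKO liver.
None of the 5 genes passed in edgeR in brain, kidney, liver or lung, and none was called by DESeq2 there. An unadjusted p under 0.05 was reached by 2 genes in brain, 1 in liver and none in kidney or lung. Over all genes 1.75% were called in brain and 0% in kidney, liver and lung. In brain Smoc1 had 53.1 and 56.0 CPM in pTKO, against 48.4 and 41.7 CPM in pWT brains (edgeR adjusted p = 0.178). Single libraries decided several of these outcomes. In lung, Jade1, Gab1 and Smoc1 passed without pTKO replicate 2 (adjusted p = 0.0252, 0.00382 and 0.00621) and Slc38a4 without pTKO replicate 1 (adjusted p = 0.0213). In brain Gab1 passed without pTKO replicate 2 (adjusted p = 0.0161), and in heart Smoc1 without pWT replicate 2 (adjusted p = 0.043). A test for any difference of the pTKO effect between the 5 tissues called none of the genes, beside 0.0106% of all genes.

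In batch 2 of E18.5, with 4 libraries a group, pIR hearts and livers were close to pWT at all 5 genes. The log2 fold changes ran from -0.09 ± 0.09 for Slc38a4 in liver to 0.32 ± 0.31 for Sfmbt2 in heart. Slc38a4 averaged 483.9 ± 49.3 CPM in pIR and 517.4 ± 49.2 CPM in pWT livers, and Smoc1 averaged 89.3 ± 6.86 CPM in pIR and 84.5 ± 6.70 CPM in pWT livers (SD, n = 4 each). Jade1 in heart did not overlap between the groups, with 53.1 to 56.5 CPM in pIR against 56.8 to 59.6 CPM in pWT hearts. That difference was small (log2 -0.08 ± 0.05) and did not pass (edgeR adjusted p = 0.818). None of the 5 passed in edgeR in either tissue, none had an unadjusted p under 0.05 and none was called by DESeq2, beside 0.0137% of all genes in heart and 0% in liver. A test of whether the pIR effect differed between liver and heart called none of the 5 in edgeR either, and none had an unadjusted p under 0.05, beside 0.00622% of all genes.

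At P1 Gab1 and Smoc1 were higher in every pIR library than in every pWT library of the same tissue, in all 4 tissues. How many of all genes lay without overlap was not counted, here or in the other comparisons. Nothing is therefore read from a lack of overlap alone. Gab1 had 147.1 and 160.3 CPM in pIR hearts, against 97.8, 106.0 and 110.7 CPM in pWT hearts. In kidney it had 101.3 and 103.8 CPM in pIR, against 75.9, 79.8 and 85.4 CPM in pWT. In lung it had 150.9 and 158.9 CPM in pIR, against 113.1, 116.3 and 110.8 CPM in pWT. In these 3 tissues the libraries of a group lay closer to each other than to the other group.
The liver held the least Gab1, at 30.4 and 26.7 CPM in pIR, against 19.5, 25.3 and 26.2 CPM in pWT. Gab1 passed in kidney (log2 0.40 ± 0.10, edgeR adjusted p = 0.0433), liver (0.61 ± 0.16, edgeR adjusted p = 0.00983) and lung (0.41 ± 0.09, edgeR adjusted p = 0.0483), and did not in heart (0.46 ± 0.13, edgeR adjusted p = 0.0913). In kidney and lung it passed in none of the 5 fits that left out a library. In lung it was also lost with all P1 groups in the fit (adjusted p = 0.113). In liver the call rests on the scaling: library totals in place of TMM factors moved the genes' log2 fold changes by -0.35, and Gab1 was then at 0.27 (edgeR adjusted p = 0.185).

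Smoc1 had 29.1 and 88.9 CPM in pIR hearts, against 26.8, 10.3 and 16.4 CPM in pWT hearts. The pIR hearts differed from each other by more than the lower of them differed from pWT, and Smoc1 did not pass there (log2 1.65 ± 0.47, edgeR adjusted p = 0.0926), except without pIR replicate 1 (adjusted p = 0.0137). In kidney it had 6.27 and 6.30 CPM in pIR, against 2.65, 1.70 and 2.896 CPM in pWT, and rose by 1.43 ± 0.28 (edgeR adjusted p = 0.0214). That call was lost without pWT replicate 1 or either pIR library (adjusted p up to 0.11).
In liver Smoc1 had 99.0 and 94.6 CPM in pIR, against 64.3, 69.0 and 74.8 CPM in pWT, and rose by 0.82 ± 0.13 (edgeR adjusted p = 0.000379), which was lost with all P1 groups in the fit (adjusted p = 0.055). In lung it had 4.90 and 5.54 CPM in pIR, against 2.54, 2.30 and 4.04 CPM in pWT, and did not pass (0.79 ± 0.27, edgeR adjusted p = 0.152). A test for any difference of the pIR effect between tissues did not call Gab1 (adjusted p = 0.711) or Smoc1 (adjusted p = 0.425).

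Slc38a4 differed by tissue. In liver it had 623.9 and 880.3 CPM in pIR, against 300.2, 351.7 and 312.8 CPM in pWT, a fitted rise of 2.98-fold (log2 1.58 ± 0.17, edgeR adjusted p = 3.27e-05) that held in all 5 fits that left out a library. In kidney it was lower, at 66.1 and 68.1 CPM in pIR against 168.5, 133.5 and 76.6 CPM in pWT, and did not pass (-0.86 ± 0.28, edgeR adjusted p = 0.0889). DESeq2 called that difference, and edgeR did without pWT replicate 3 (adjusted p = 0.00143). It averaged 126.0 and 33.2 CPM in pIR hearts and lungs, against 106.1 and 31.9 CPM in pWT hearts and lungs. The tissue test called Slc38a4 (F = 14.02, edgeR adjusted p = 0.00144), where 25.3% of 17862 genes were called, and none of the other four genes.

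Sfmbt2 was barely expressed at P1, at 0.844 to 3.09 CPM in pIR and 0.570 to 4.75 CPM in pWT tissues. It was higher without overlap in lung, at 2.86 and 2.87 CPM in pIR against 2.08, 1.59 and 1.23 CPM in pWT (log2 0.76, edgeR adjusted p = 0.211). Jade1 was lower without overlap in pIR livers, at 11.8 and 17.1 CPM against 18.49, 24.4 and 24.97 CPM in pWT livers. It did not pass with TMM factors, but with library totals in place of TMM factors it fell by 0.65 (edgeR adjusted p = 0.0156).

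Thus none of the 5 genes was called in P1 heart, 2 in kidney, 3 in liver and 1 in lung, where 2.32%, 10.6%, 39.2% and 2.6% of all genes were called. In heart 2 genes had an unadjusted p under 0.05 in edgeR and DESeq2 called 1.

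**Figure D3:**
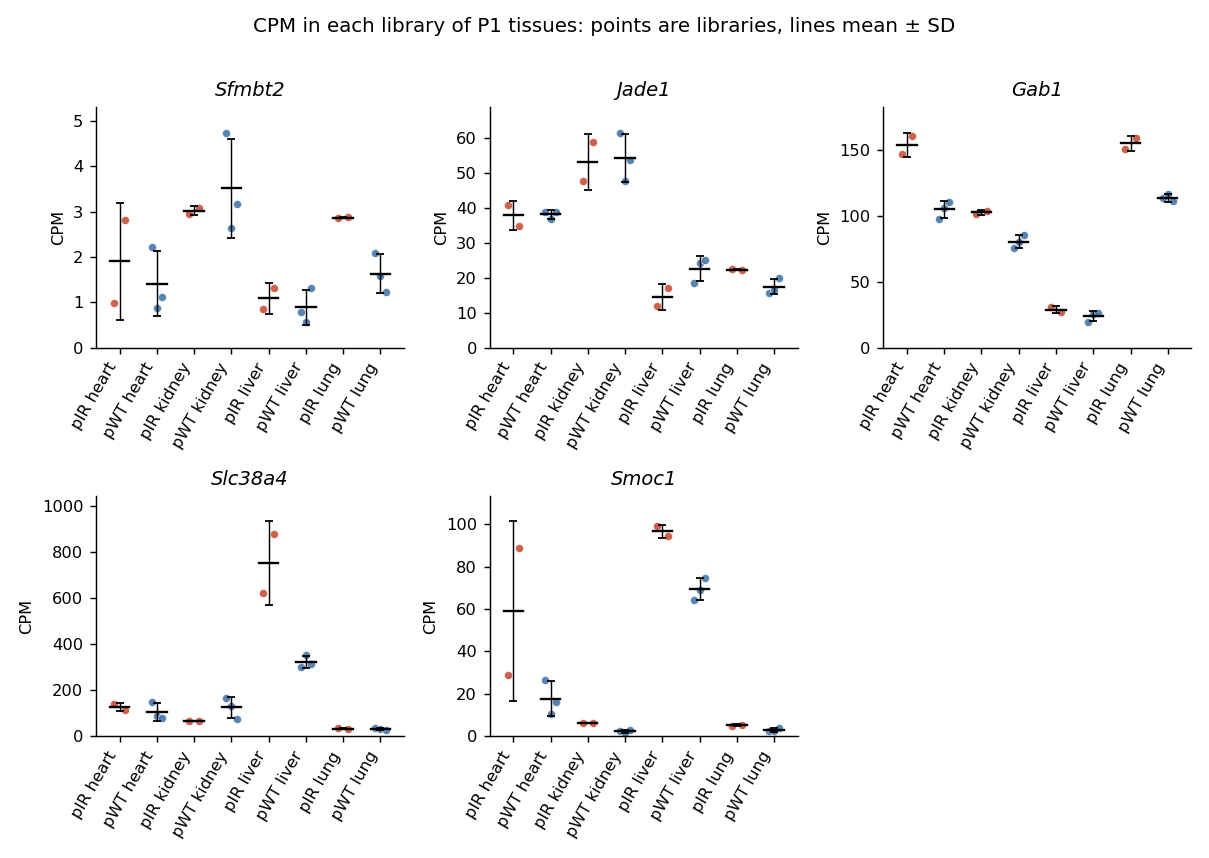
Level of each gene in CPM (y axis, a separate scale for each panel) in every P1 library of pIR and pWT heart, kidney, liver and lung; points are libraries and lines are mean ± SD. Gab1 and Smoc1 lie higher in pIR than in pWT in every tissue, and Slc38a4 stands at 623.9 and 880.3 CPM in pIR livers against 300.2 to 351.7 CPM in pWT livers.

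Markers of cell types moved with these results at P1. In liver all 8 hepatocyte markers rose, with a median log2 fold change of 1.36, and their sum was 12.98% and 14.4% of counts in pIR against 5.45% to 6.83% in pWT livers. Haemoglobin genes, the mark of blood and of blood-forming cells in the newborn liver, made up 3.39% and 2.27% of counts in pIR, against 7.69% to 9.75% in pWT livers, and 7 of 9 fell. Relative to the hepatocyte markers Slc38a4 overlapped between the groups, at 4.81 and 6.10 counts per 1000 marker counts in pIR against 5.51, 5.15 and 5.64 in pWT livers.
On the same measure Smoc1 was lower in pIR, at 0.762 and 0.656, against 1.18, 1.01 and 1.35 in pWT livers. Gab1 was lower too, at 0.234 and 0.185 against 0.358, 0.371 and 0.473. The marker sum was itself higher in pIR livers, so a gene that rose less than the sum comes out lower on this measure. In kidney 4 of 8 epithelial markers rose, among them Slc12a3, and their sum was 3114 to 3134 CPM in pIR against 1520 to 2105 CPM in pWT. In lung 6 of 8 haemoglobin genes fell, and summed lung epithelial markers were 26280 to 26770 CPM in pIR against 23020 to 25120 CPM in pWT. In heart 4 of 6 haemoglobin genes fell, and summed cardiomyocyte markers were 39820 to 41950 CPM in pIR against 46210 to 55400 CPM in pWT. The part of these markers in the results for liver, kidney, lung and heart was not tested.

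**Figure D4:**
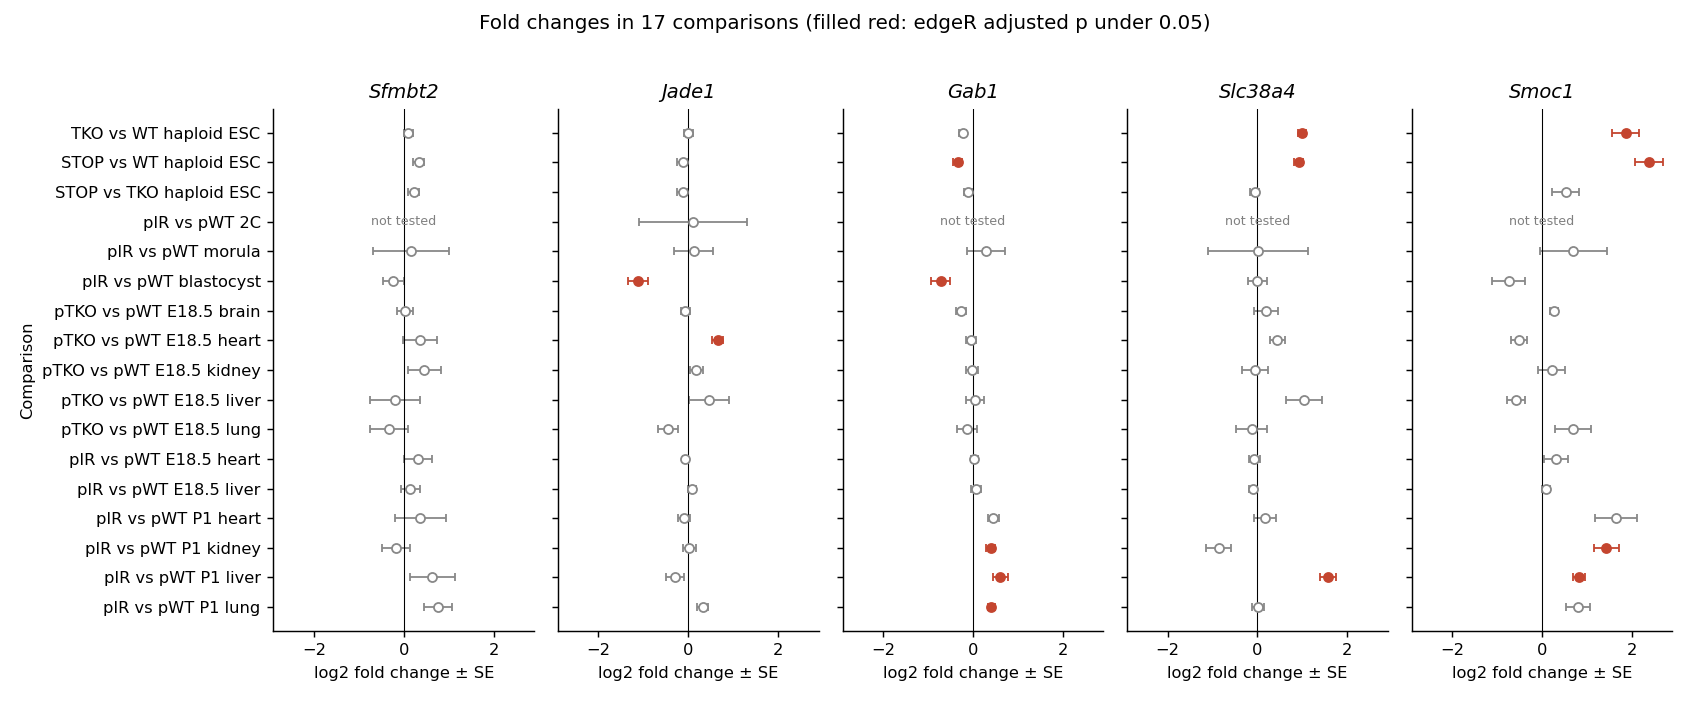
Fitted log2 fold change ± SE (x axis) of each gene in the 17 comparisons (y axis), with filled red points where the edgeR adjusted p was under 0.05. Slc38a4 and Smoc1 are called higher in both mutant haploid genotypes and in pIR livers at P1, and Jade1 and Gab1 are called lower in pIR blastocysts.

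For the marker counts above and the gene lists that follow, shares of all genes called higher and lower serve as background. They were 6.74% and 3.9% in pIR blastocysts, 9.83% and 4.72% in TKO cells, and 13.8% and 9.37% in STOP cells. They were 15% and 11.9% in pTKO hearts. In pIR tissues at P1 they were 1.54% and 0.786% in heart, 7.58% and 3.06% in kidney and 1.52% and 1.07% in lung. In pIR livers at P1, 20.7% of genes were called higher and 2694 of 14588 lower. The counts below of 3 of 11 higher in the imprinting class and of 2 of 12 lower among the partners of Gab1 lie near the background there. So does the count of SPARC family and BMP genes that rose in P1 livers. In haploid cells the counts of PRC2 genes that rose, and in STOP cells that of the imprinting class, are near or below these shares. Nothing is read about a list from a count near its share.
Other genes of the same imprinting class moved in both directions across the comparisons. Of 14 with a row, 13 were tested in blastocysts. Epas1, a hypoxia-inducible transcription factor, fell to 78.7 ± 22.6 CPM in pIR, against 205.1 ± 43.8 CPM in pWT blastocysts (log2 -1.20 ± 0.22, edgeR adjusted p = 0.0104), and none rose. The median of the list was -0.63, against -0.07 over all genes tested. None of 5 passed at the 2C stage and none of 12 in morulae.
At P1 Epas1 rose in pIR kidney (0.66 ± 0.09) and liver (1.37 ± 0.13), and Etv6, a repressor of the ETS family, rose in kidney (0.48), liver (0.56) and lung (0.68). In all, 2 of 12 rose in kidney, 3 of 11 in liver and 1 of 11 in lung, and Xist, the RNA that coats the inactive X chromosome, fell in liver. In haploid cells 2 of 14 fell in TKO, Mbnl2 and Myo1a. In STOP cells 1 of 14, Bbx, rose and 3, Mbnl2, Etv6 and Runx1, fell. In pTKO hearts 3 of 12 rose, Rbms1, Bbx and Mbnl2.

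Of the PRC2 subunits and their accessory proteins, 2 of 11 fell in pIR blastocysts, Aebp2 (log2 -0.73 ± 0.20) and Jarid2 (-0.63 ± 0.18), both accessory proteins, and the list's median was -0.41. Ezh2, the catalytic subunit, rose by 0.42 in both TKO and STOP cells. In TKO cells 1 of 11 rose and 1 fell, and in STOP cells 1 rose and 2 fell. In P1 livers 1 of 11, Rbbp7, rose in pIR and 6 fell, among them Ezh2 (-0.67 ± 0.14) and Suz12 (-0.74 ± 0.16). Of the PRC1 subunits none of 18 passed in blastocysts.

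Among the partners of Jade1, its paralogue Jade3 rose in pIR blastocysts, to 42.0 ± 8.44 CPM against 26.3 ± 4.07 CPM in pWT (log2 0.86 ± 0.23, edgeR adjusted p = 0.031), 1 of 8 tested genes of the HBO1 complex. Kat7, the acetyltransferase of that complex, rose in pIR in all 4 tissues at P1, by 0.93 in heart, 0.96 in kidney, 0.79 in liver and 0.67 in lung on the log2 scale (edgeR adjusted p from 0.000674 to 0.0293). Brpf3, another scaffold of the complex, rose in TKO (1.42 ± 0.12) and STOP cells (1.32 ± 0.13). The other tested partners in the complex are not reported here for P1 tissues or haploid cells, so nothing is said of the complex as a whole. Among the MBT domain family, Mbtd1 fell in blastocysts (-0.84 ± 0.24), 1 of 7 tested.

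Among the partners of Gab1, none of 10 passed in blastocysts and none of 12 in P1 kidney, lung or heart. In haploid cells 3 of 12 rose in both mutants: Met, the receptor of hepatocyte growth factor, the paralogue Gab2, and Pik3r1, a subunit of phosphoinositide 3-kinase. In P1 livers 5 of 12 rose and 2 fell.
Among the relatives of Slc38a4, Slc38a5 fell in TKO (log2 -3.79 ± 0.65) and STOP cells (-5.04 ± 0.88), and none of the 9 tested rose. In P1 livers Slc38a3, the glutamine transporter of hepatocytes, rose by 0.66 ± 0.14 along with Slc38a10 and Slc38a7, and Slc38a9 fell. Of the SPARC family and BMP genes around Smoc1, 2 of 9 fell in TKO cells, Bmp4 and Smad5. In P1 livers 3 of 12 rose, among them the paralogue Smoc2 by 0.99, and Chrd fell.

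Across control groups each gene kept its own pattern of levels. Per kilobase of exon, WT haploid cells held 52.6 CPM of Gab1, 49.1 of Jade1, 37.4 of Slc38a4, 3.56 of Sfmbt2 and 1.92 of Smoc1. In pWT blastocysts the order was Slc38a4 with 30.6, Gab1 with 19.0, Jade1 with 13.5, Sfmbt2 with 7.39 and Smoc1 with 4.08 CPM per kilobase. In pWT livers of E18.5 batch 2 it was Slc38a4 with 121, Smoc1 with 24.2, Gab1 with 5.22, Jade1 with 3.20 and Sfmbt2 with 0.281 CPM per kilobase.

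**Figure D5:**
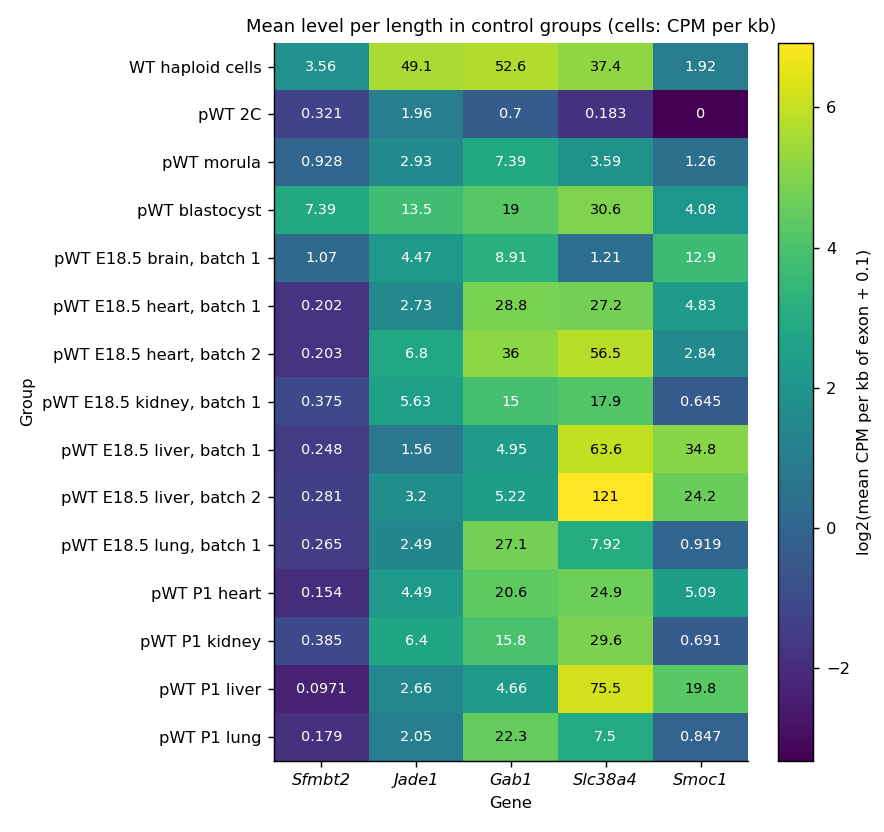
Mean level per kilobase of exon in each control group (rows) for each gene (columns), with the value printed in each cell and coloured on a log2 scale. Slc38a4 is highest in E18.5 liver of batch 2, at 121 CPM per kilobase, and Smoc1 in E18.5 liver of batch 1, at 34.8. In the other batch of E18.5 livers they stand at 63.6 and 24.2 CPM per kilobase. Sfmbt2 is highest in blastocysts, at 7.39 CPM per kilobase.

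Sfmbt2 was highest in pWT blastocysts (59.95 to 75.4 CPM), then in WT haploid cells (30.8 to 34.0 CPM). It followed in pWT brain (8.96 to 10.6 CPM) and morulae (7.98 to 9.15 CPM), whose ranges overlapped. The other pWT tissues averaged from 0.887 CPM in P1 liver to 3.52 CPM in P1 kidney. The 72 microRNA genes inside Sfmbt2 that have rows summed to 0 to 39 counts per library, with none in 31 libraries. The libraries are of polyadenylated RNA and the other annotated microRNA genes have no row. Expression of the microRNA cluster is therefore not read from these counts.
Jade1 was highest in WT haploid cells (407.9 to 426.2 CPM), then in pWT blastocysts. It followed in hearts of E18.5 batch 2 (56.8 to 59.6 CPM) and P1 kidney (47.7 to 61.6 CPM), whose ranges overlapped. It was lowest in livers of E18.5 batch 1 (7.90 to 18.6 CPM), which overlapped 2C embryos and P1 lung. With TMM factors over all libraries P1 lung (mean 12.9 CPM) lay below those livers (19.5 CPM). Batches differed: pWT hearts at E18.5 held 22.6 to 23.9 CPM in batch 1, against 56.8 to 59.6 CPM in batch 2.
Gab1 was highest in WT haploid cells (258.7 to 278.0 CPM), then in hearts of E18.5 batch 2 (163.2 to 198.9 CPM). Hearts of batch 1 and E18.5 lung overlapped at 138.1 to 154.5 and 135.7 to 140.1 CPM. The pWT livers, at means of 23.7 to 26.5 CPM, overlapped each other and were the lowest after 2C embryos. With TMM factors over all libraries brain (mean 32.7 CPM) lay below the E18.5 livers (36.96 CPM in batch 1 and 38.1 CPM in batch 2).
Slc38a4 was highest in livers of E18.5 batch 2 (451.5 to 558.7 CPM). P1 liver (300.2 to 351.7 CPM), liver of batch 1 (185.7 to 356.4 CPM) and heart of batch 2 (215.7 to 286.0 CPM) followed, and batch 1 liver overlapped each of the others. It was lowest in 2C embryos and then in brain (4.20 to 6.07 CPM).
Smoc1 was highest in the pWT livers, at 114.7 to 128.3 CPM in E18.5 batch 1, 77.0 to 91.8 CPM in batch 2 and 64.3 to 74.8 CPM at P1, none of which overlapped. Brain came next with 41.7 to 48.4 CPM. P1 heart, E18.5 heart of batch 1 and blastocysts overlapped below it.

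Over the means of all 31 groups, on a scale of log2(CPM + 1), genes of most similar pattern among 15700 compared were named for each gene. For Sfmbt2 they were Noxred1 (Pearson r = 0.95), Hsph1 (0.94) and Zfp459 (0.93), and for Jade1 they were Zranb3 (0.95) and Dcaf1 (0.94). For Gab1 they were Tead1 (0.94), Mfge8 (0.93) and Pkn3 (0.92). For Slc38a4 they were Slc16a1 (0.92), Mmut (0.89) and Scrn3 (0.89), and for Smoc1 Xk (0.87), Ccdc92b (0.84) and Onecut2 (0.84). Among the genes themselves r was highest between Sfmbt2 and Jade1 (0.74) and between Slc38a4 and Smoc1 (0.61). The points share libraries and cell types, so these values are descriptions and carry no p-value.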

How the data were processed

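RNA was measured by polyadenylated RNA sequencing in 87 libraries of 31 groups. The labels' protocol names both an oligo(dT) bead kit and a low-input Smart-Seq2 kit, and does not say which libraries used which. The submitters' processing notes name Trim Galore 0.6.6, HISAT2 2.1.0 and featureCounts 1.6.4, with mm10 as the build. The annotation, strand setting and handling of multi-mapping reads are not given in the sources used here. The values deposited by the authors are raw read counts per gene, checked to be whole numbers. For 11 embryo columns the sample was found by elimination.

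Genes were kept with filterByExpr (minimum count 10), scaled with TMM and tested by quasi-likelihood in edgeR 4.0.16 (R 4.3.3), with Benjamini-Hochberg adjustment over all genes of a comparison and a threshold of 0.05. In each of the 17 comparisons the fit held the 2 groups compared, except that the 3 haploid genotypes shared 1 fit. A further 7 contrasts tested stages or differences of effects. The SE is the size of the log2 fold change over the root of F. Printed CPM use library totals and no TMM factor, so their ratio can differ from the fitted fold. Libraries of a group differed beyond counting noise in every group (lowest chi-square per degree of freedom 3.65), and none were merged. The test was tried on simulated data.

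Alternatives were median-of-ratios scaling, the DESeq2 1.42.0 Wald test, no count filter, the replicate number as a block, wider fits, GC and length trends, haemoglobin genes left out, and each library left out. Outside the haploid cells the block fit kept only replicate numbers found in both groups. Morulae and blastocysts alone, crossed replicate numbers and scaling by library totals were added after the data were seen. The genes, the lists and their markers were chosen with earlier results of these data known. Genes named are the 5, at most 4 per list by smallest p, the 3 most similar in pattern (mean of 5 CPM or more in at least 3 groups), and the neighbouring protein-coding genes; a few genes that these rules name are not reported here. Of the symbols, 24418 (96.6%) matched GENCODE M21.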

Additional observations from a re-analysis of the deposited data

Results flagged for a closer look

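In groups of 4 libraries, 7 levels stood apart from the other libraries of their group, by the gap to the nearest library relative to the range. Of 44 groups and genes looked at, chance alone flags about 1 in 20. At the 2C stage 5 of the 7 occurred: Sfmbt2 at 26.6 CPM in pIR replicate 2 and 11.7 CPM in pWT replicate 2, Slc38a4 at 4.90 CPM in pIR replicate 2 and 3.12 CPM in pWT replicate 1, and Gab1 at 14.2 CPM in pWT replicate 2. In 4 of them the other three libraries had no reads, so a single library with reads meets the criterion by construction. In blastocysts Sfmbt2 stood at 81.4 CPM in pIR replicate 1, above the other three pIR libraries. In pWT livers of E18.5 batch 2 Jade1 stood at 22.9 CPM in replicate 3, below the rest.

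The difference between pIR and pWT at P1 varied by tissue for Slc38a4 (edgeR F test over the 4 tissues, adjusted p = 0.00144). It was higher in 2 of 2 pIR livers and lower in 2 of 2 pIR kidneys than in every pWT library of the tissue. Hepatocyte markers were higher in the same livers and kidney epithelial markers in the same kidneys, and their part in this difference was not tested.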

How the results depend on the processing

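No alternative reversed the direction of a called gene. Of 984 refits of a single gene's fold change, 917 stayed on the same side of the threshold, 40 lost a call and 27 gained one. Most of the refitted fold changes were not called to begin with, and those could not lose a call. The number of the 5 genes called moved as follows. In TKO cells it was 2, and 3 without TKO replicate 3. In STOP cells it was 3, and it was 2 with the replicate block, 4 with 2 genotypes alone in the fit and 2 without any 1 library. In blastocysts it was 2, and it was 1 with median-of-ratios scaling, 1 with the replicate block, 1 with GC and length trends taken out, 0 with all embryo groups in the fit and 1 to 2 without a library. In pTKO heart it was 1, and it was 0 with all batch 1 groups in the fit and 0 to 2 without a library. In P1 heart it was 0, and it was 1 with DESeq2, 1 with no count filter, 2 with all P1 groups in the fit and 0 to 1 without a library. In P1 kidney it was 2, with 3 under DESeq2, 1 under library totals and 0 to 2 without a library. In P1 liver it was 3, and 2 with all P1 groups in the fit. In P1 lung it was 1, with 2 under the replicate block, 0 with all P1 groups in the fit and 0 without any 1 library. Leaving out a library gave 0 to 1 in pTKO brain, 0 to 3 in pTKO liver and 0 to 3 in pTKO lung, where 0 were called. In 2C embryos all groups in the fit gave 1, Smoc1, in place of 0. Between pWT morulae and 2C embryos median-of-ratios scaling and no filter each gave 2 in place of 1, and between pWT blastocysts and morulae the fit without 2C embryos gave 4 in place of 0. Of 155 mean levels, 94 moved by at least the SD of their group under TMM factors over all libraries. The orders of levels across groups rest on library totals and depend on that choice. The cause of these changes was not tested.

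Replicate numbers are not said to pair samples, and deviations of same-numbered libraries correlated from -0.34 to 0.19, so no pairing was assumed. Outside the haploid cells the block fit kept only libraries whose number occurs in both groups. It thus lacked pIR replicate 4 in morulae and pWT replicate 3 in P1 tissues. There the effect of the block and that of the missing library cannot be told apart. With the replicate block the calls of Gab1 were lost in blastocysts, in STOP cells (edgeR adjusted p = 0.0675) and in P1 kidney (edgeR adjusted p = 0.0657). In pTKO heart, kidney and liver those correlations lay below -0.1, and with crossed numbers 3034, 0 and 0 genes were called, against 2535, 0 and 0 with the numbers as given, and 0 of the 5 genes in heart. Over all genes the block gave 1 call in place of 16 in morulae, 168 in place of 272 in pTKO brain, 113 in place of 349 in P1 heart and 1161 in place of 421 in P1 lung. DESeq2 called 335 genes in morulae, 2191 in place of 1282 in blastocysts, 1601 in P1 heart, 2764 in place of 1727 in P1 kidney and 1085 in P1 lung. It called 353, 60 and 13 genes in pTKO kidney, liver and lung, where edgeR called 0, and 20 and 11 in pIR heart and liver at E18.5, where edgeR called 2 and 0.

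With 2 libraries a group at E18.5 batch 1 and 2 against 3 at P1, a single library decides many calls. In 2C embryos Sfmbt2, Slc38a4 and Smoc1 had no reads in most libraries and Gab1 in 4 of 8, and none of these 4 genes passed the filter there.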
